A study of Homo sapiens with 6 samples.

Results

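The nuclear genes of the respiratory chain encode most subunits of the 4 electron transfer complexes of the inner mitochondrial membrane and of ATP synthase (complex V). They were chosen by gene symbol alone: names starting NDUFA, NDUFB, NDUFC, NDUFS, NDUFV, UQCR, ATP5F, ATP5M or ATP5P, the COX4 to COX8 subunit genes, the SDH genes and CYC1, with the NDUFAF assembly factors left out. This gave 88 of the 33297 transcript clusters of the array, a cluster being the probes for 1 transcribed locus. Of these, 84 clusters belonged to 77 subunit genes, 34 of complex I, 3 of complex II, 8 of complex III, 16 of complex IV and 16 of complex V, and the other 4 carried a pseudogene, retrogene or divergent-transcript symbol. A further 9 clusters carried a matching symbol together with symbols of other genes and were not assigned to a gene. The study hybridised total RNA of HEK293, an established human embryonic kidney cell line, to 6 Affymetrix Gene 1.0 ST arrays, 3 titled treatment and 3 titled control. Treatment cells received a Neo vector per the source field, and control cells a transient vector. The design text instead sets HEK293 cells transfected with the empty plasmid pCMV9 against untreated ones, so the groups are called treatment and control here. The treatment protocol is given by reference only, no dose or time is stated, and no label says whether replicates were separate cultures, and the p-values cover the variation among these 6 arrays alone, which could be technical. The design text gives the aim as finding which antiviral products follow transfection with an empty vector.

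Complex I (NADH dehydrogenase) and complex II (succinate dehydrogenase) pass electrons to ubiquinone, complex III passes them on to cytochrome c, and complex IV (cytochrome c oxidase) passes them to oxygen. Proton pumping by complexes I, III and IV drives ATP synthase. Complexes I, III, IV and V combine nuclear subunits with subunits encoded in mitochondrial DNA, so the nuclear genes have to be expressed in step with a second genome, and the factors NRF1, GABP and YY1 are known to bind the promoters of many of them. Mitochondria also carry the adaptor MAVS, through which cytosolic RNA sensors induce interferon.

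The contrast was large for a list of 8 interferon and interferon-response genes, chosen with earlier results of these data known. Their rise therefore describes the contrast and does not test it. All 8 passed limma after adjustment as higher in treatment, where 0.372% of all clusters passed in either direction. RSAD2 for example gave 1303, 2317 and 2219 in treatment, against 64.2, 66.4 and 58.9 in the control arrays. Median intensity per array lay between 77.2 and 84.2. Treatment replicate 3 had the lowest mean correlation with the other arrays (Pearson's r = 0.963, against 0.972 to 0.978 for the others). Neuronal intermediate filament genes, known in this line, were bright (INA averaged 638 in treatment and 546 in control arrays). STMN2 of the same neuronal list averaged 15.4 and 22.8, and the muscle marker CKM averaged 596 in both groups. The summed intensity of 5 leukocyte markers was 236 to 339 in treatment and 230 to 305 in control arrays; 4 of them, PTPRC among them, averaged under 56.7, a background level defined with complex IV, and CD14 averaged 212 in treatment and 182 in control arrays. Of the markers of leukocytes, fibroblasts, kidney epithelium, neurons and muscle, 0 of 23 measured passed limma's test after adjustment, where 0.372% of all clusters did. An unadjusted p under 0.05 was found for 3 of them, 2 of fibroblasts and 1 of kidney epithelium, where 7.3% of all clusters had it. The fibroblast markers COL1A1 and COL1A2 went in opposite directions (-0.46 and 0.47), and the kidney marker PAX2 was at 0.76. Bulk arrays cannot tell fewer cells with a transcript from less of it per cell.

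Across the respiratory chain, most subunit genes had slightly lower values in the treatment arrays, and no single gene passed the test. Of the 77 genes, 69 (89.6%) had a log2 change below 0, against 48.2% of all clusters and 57.5% of clusters brighter than the median cluster. The median log2 change was -0.25, a fold of 0.843 of treatment over control, with the middle 50% of genes between -0.33 and -0.13, whereas the median over all clusters was 0.01. In 26 of the 77 genes (33.8%) all 3 treatment arrays lay below all 3 control arrays, and in 0 genes did they lie above. Over all clusters the share with all treatment arrays below was 7.1%, and among the brighter clusters 10.04%. All treatment arrays lay above all control arrays in 7.47% of all clusters and in 844 of the 16648 brighter clusters. The changes were differences of log2(intensity + 16), fitted with limma over all clusters, and their standard errors lay between 0.190 and 0.310. At an adjusted p under 0.05 limma called 0 of the 77 genes, against 0.372% of all clusters in either direction and 0.015% lower in treatment, and the lowest adjusted p was 0.389. At an unadjusted p under 0.05 it called 5 genes, all lower in treatment, or 6.49% of the 77, where 7.3% of all clusters passed in either direction, 2.29% lower and 5.01% higher in treatment. The 95% interval of the change included 0 in 72 genes and excluded a 2-fold decrease in 75. The count of genes with separated groups depended on 1 array and on the scaling: it was 48 (62.3%, against 13.995% of all clusters) without treatment replicate 3 and 16 (20.8%, against 7.52% of all clusters) after quantile normalization. Fewer arrays separate more easily, and without 1 of the other arrays the count was 28 to 33, against 9.29% to 13.08% of all clusters. Why the count was higher without treatment replicate 3 was not tested.

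**Figure D1:**
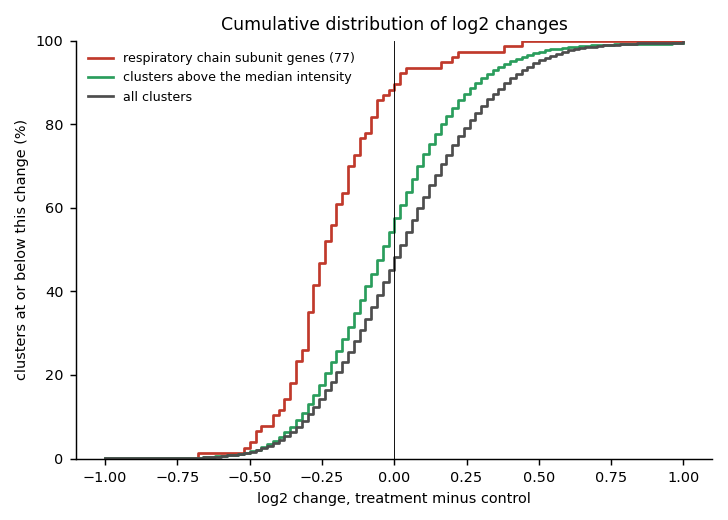
Cumulative percentage of clusters (vertical axis) at or below each log2 change, treatment minus control (horizontal axis), for the 77 subunit genes, for clusters brighter than the median cluster and for all clusters. The curve of the subunit genes lies to the left, reaching 89.6% at a change of 0, where all clusters reach 48.2%.

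Complex I had the lowest median of the 5 complexes, -0.29, a fold of 0.815, and 32 of its 34 genes were below 0. NDUFA2, an accessory subunit of the NADH-binding module, had the largest change of all members. It gave 156, 158 and 140 in the treatment arrays, against 233, 273 and 256 in the control arrays, a log2 change of -0.69 ± 0.193 (SE, n = 3 each; limma, unadjusted p = 0.00313, adjusted p = 0.389). Every treatment array was lower than every control array. NDUFB10, an accessory subunit of the membrane arm, gave 530, 441 and 468 in treatment, against 576, 742 and 750 in control, a change of -0.50 ± 0.204 (limma, adjusted p = 0.670), again without overlap. NDUFA13, a membrane arm subunit whose older name refers to cell death induced by interferon and retinoid, gave 231, 252 and 327 in treatment and 429, 368 and 345 in control arrays. Its change was -0.48 ± 0.210 (limma, adjusted p = 0.680), and the nearest arrays of both groups were close. NDUFS8, a core subunit with iron-sulfur clusters, gave 212, 222 and 262 in treatment and 255, 366 and 385 in control arrays, so the groups overlapped, at -0.49 ± 0.217 (limma, adjusted p = 0.680).

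The promoters of the 5 members with an unadjusted p under 0.05 are shown because these 5 genes had the lowest p-values among the members. COX7B belongs to complex IV and is described with it. The 250 bases before each annotated start are from RefSeq (GRCh38.p14), 5′ to 3′ on the gene's strand, and capitals mark a match to 1 of 4 motif families known from promoters of respiratory chain or other housekeeping genes (letters below). NDUFA2 (chr5:140647631-140647880, minus strand) holds an SP1 match, NDUFB10 (chr16:1959288-1959537, plus) an NRF1 match and NDUFA13 (chr19:19515975-19516224, plus) an ETS match, while NDUFS8 (chr11:68030431-68030680, plus) and COX7B (chrX:77899218-77899467, plus) hold none in these bases.
NDUFA2: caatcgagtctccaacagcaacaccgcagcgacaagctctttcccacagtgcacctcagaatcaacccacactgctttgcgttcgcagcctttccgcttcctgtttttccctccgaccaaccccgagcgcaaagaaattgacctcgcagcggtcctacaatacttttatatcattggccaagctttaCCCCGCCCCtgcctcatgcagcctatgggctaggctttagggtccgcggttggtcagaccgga
NDUFB10: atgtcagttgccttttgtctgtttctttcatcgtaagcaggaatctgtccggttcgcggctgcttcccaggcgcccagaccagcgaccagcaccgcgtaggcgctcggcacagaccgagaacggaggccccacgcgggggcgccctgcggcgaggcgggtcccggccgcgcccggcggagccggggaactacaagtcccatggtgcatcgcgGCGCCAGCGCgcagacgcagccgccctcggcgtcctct
NDUFA13: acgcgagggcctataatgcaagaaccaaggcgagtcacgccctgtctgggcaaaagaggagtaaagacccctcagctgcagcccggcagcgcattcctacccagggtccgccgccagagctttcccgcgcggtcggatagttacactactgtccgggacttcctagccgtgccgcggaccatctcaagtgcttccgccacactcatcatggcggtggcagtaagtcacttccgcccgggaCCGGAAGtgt
NDUFS8: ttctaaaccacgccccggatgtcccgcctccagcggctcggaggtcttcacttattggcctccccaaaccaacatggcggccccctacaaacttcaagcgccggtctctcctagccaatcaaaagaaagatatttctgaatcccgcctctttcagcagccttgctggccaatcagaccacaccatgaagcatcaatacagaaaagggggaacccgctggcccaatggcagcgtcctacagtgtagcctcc
COX7B: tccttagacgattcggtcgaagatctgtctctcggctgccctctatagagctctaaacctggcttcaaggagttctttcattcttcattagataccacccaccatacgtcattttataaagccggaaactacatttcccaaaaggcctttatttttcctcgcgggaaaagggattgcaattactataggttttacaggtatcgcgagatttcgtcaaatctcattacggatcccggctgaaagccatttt

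The searched motifs were GCGC, any 2 bases and GCGC again for NRF1, CCGGAAG for ETS factors such as GABP, AAGATGGC for YY1 and GGGGCGGGG for SP1, on both strands, with no overlap between families in a promoter shown. Over windows of 300 bases, 250 before and 50 after the start, RefSeq promoters matched 65 of the 77 genes. A gene with several annotated starts counted as holding a motif if any of its windows did, and its GC content was taken from the first window. The genes in the table also include divergent transcripts such as NDUFV1-DT, so the members are set against a mixed set. The NRF1 motif was in 17 of the 65 (26.2%), against 9.98% of 27305 genes in the table. Its palindromic form with AT in the middle, a special case of the same letters, was in 4 (6.15%, against 1.52%). The ETS motif was in 20 members (30.8%, against 12.2%), the YY1 motif in 11 (16.9%, against 3.52%) and the SP1 motif in 9 (13.8%, against 18.5%). A match to the NRF1, ETS or YY1 letters was thus in 40 of the 65 promoters (61.5%), against 22.4% of all genes. Among the genes with separated groups, 6 of 23 (26.1%) held the NRF1 motif, against 11 of 42 (26.2%) of the others. The ETS motif was in 7 of 23 (30.4%), against 13 of 42 (31.0%), and the YY1 motif in 3 of 23 (13.0%), against 8 of 42 (19.0%). The SP1 motif was in 3 of 23 (13.0%), against 6 of 42 (14.3%). Median promoter GC content was 61% in the 65 members and 58.3% in all genes, and its part in the motif shares was not tested. These are matches of letters, counted as a description.

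The remaining complex I genes differed in how the arrays lay. NDUFS6, a zinc-binding subunit of the NADH module, gave 839, 787 and 879 in treatment and 1229, 1008 and 1080 in control arrays, at -0.39 ± 0.195. NDUFB7 gave 665, 726 and 701 in treatment and 768, 990 and 991 in control arrays, at -0.38. NDUFB3, a small membrane arm subunit, gave 94.3, 76.7 and 67.5 in treatment and 107, 99.8 and 100 in control arrays, at -0.32 ± 0.199. NDUFA11, a membrane arm subunit that binds near the supercomplex interface, gave 396, 442 and 568 in treatment and 587, 639 and 660 in control arrays, at -0.43 ± 0.207. In these 4 genes the groups did not overlap. In contrast, NDUFB6 (-0.52 ± 0.310) had its difference from 1 array, with 183, 155 and 59.7 in treatment and 196, 149 and 202 in control arrays. NDUFS7, the core subunit that hands electrons to ubiquinone, gave 108, 118 and 187 in treatment and 176, 226 and 177 in control arrays, at -0.47 ± 0.231, and here replicate 3 was the array that reached the control values. NDUFB8 (-0.37 ± 0.212) had the same order, with 535, 636 and 772 in treatment and 883, 901 and 725 in control arrays.

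The 6 measured core subunits of complex I, most of which bind FMN or iron-sulfur clusters, were all below 0, between -0.49 and -0.05, with a median of -0.29. In 0 of the 6 were the groups separated, against 12 of the 34 genes of the complex. Over all clusters 7.1% were separated with treatment lower, and 10.04% of the brighter clusters. For 6 genes a count of 0 is near these shares. NDUFV1, which binds NADH and FMN, gave 523, 582 and 895 in treatment and 947, 866 and 684 in control arrays, so treatment replicate 3 lay inside the control range. Of the 18 membrane arm genes all were below 0 and 8 had separated groups, with a median of -0.31. Of the 15 peripheral arm genes 13 were below 0 and 4 had separated groups, with a median of -0.29. NDUFA5 and NDUFA9, both accessory subunits of the peripheral arm, were the complex I genes above 0. NDUFA5 gave 847, 751 and 526 in treatment and 696, 562 and 620 in control arrays, a change of 0.15 ± 0.223. NDUFA9 gave 615, 575 and 405 in treatment and 431, 558 and 587 in control arrays, a change of 0.01 ± 0.225. In both genes treatment replicate 3 was the lowest of the 6 arrays.

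**Figure D2:**
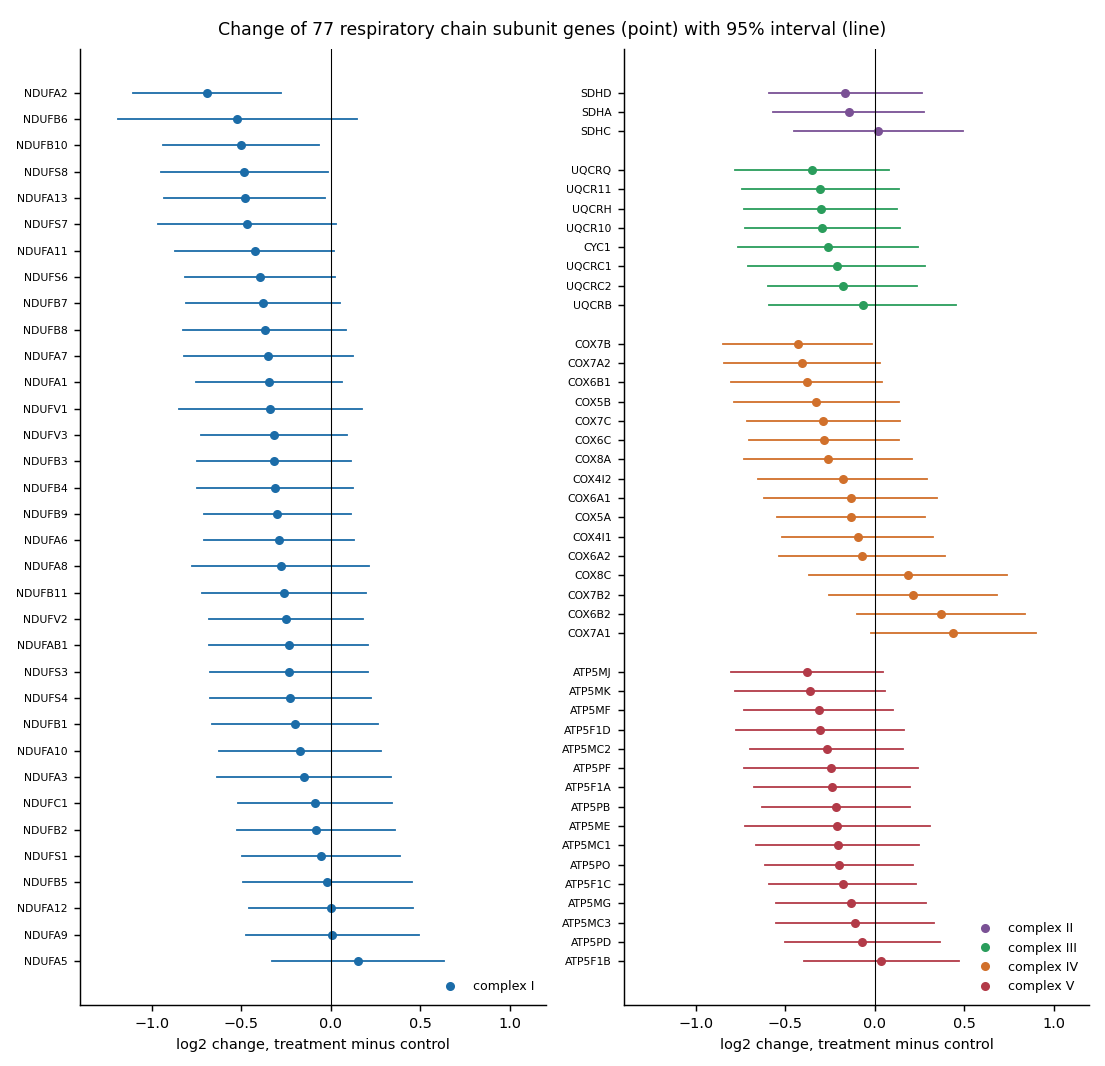
Log2 change, treatment minus control, of each of the 77 subunit genes (point) with its 95% interval from limma (line), by complex and ordered by size. Of the 77 points 69 lie left of 0, and 5 intervals exclude 0, those of NDUFA2, NDUFB10, NDUFS8, NDUFA13 and COX7B.

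Complex II, the only complex without subunits from mitochondrial DNA, had the median nearest to 0, -0.15 over 3 genes. SDHA, the flavoprotein that oxidises succinate, gave 1104, 1204 and 1259 in treatment and 1338, 1446 and 1174 in control arrays, at -0.15 ± 0.196 with overlapping groups. The membrane anchors SDHC and SDHD were each read by 2 clusters that differed in direction. SDHC gave 0.02 ± 0.220 in its brighter cluster and -0.11 ± 0.225 in the other, and SDHD gave -0.16 ± 0.199 and 0.22 ± 0.204. The 95% intervals of all 4 values included 0. By cluster number, the brighter SDHC cluster lay nearest to clusters of genes on chromosome 17, and the brighter SDHD cluster to those on chromosome 1. SDHC is on chromosome 1 and SDHD on chromosome 11, so the brighter clusters may read other loci, which was not tested. The median of the complex was taken over these brighter clusters and SDHA.

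All 8 measured genes of complex III were below 0, with a median of -0.28. UQCRQ, a small ubiquinone-binding subunit, gave 538, 492 and 502 in treatment and 585, 626 and 766 in control arrays, at -0.35 ± 0.199. UQCRH, the hinge protein, gave 207, 215 and 229 in treatment and 239, 264 and 314 in control arrays, at -0.30 ± 0.198. UQCRC2, a core protein, gave 1245, 1225 and 1069 in treatment and 1417, 1324 and 1263 in control arrays, at -0.18 ± 0.194. These were the 3 genes of the complex with separated groups, although the gaps were small. The share of all clusters separated with treatment lower was 7.1%. CYC1, which carries the haem that reduces cytochrome c, gave 424, 519 and 740 in treatment and 582, 759 and 644 in control arrays, and its groups overlapped (-0.26 ± 0.233).

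In complex IV the median of the widely expressed subunits lay below 0 and that of the tissue-restricted isoforms above it. All 10 widely expressed genes were below 0, with a median of -0.29, and 5 had separated groups, where 7.1% of all clusters were separated with treatment lower. COX7B was the most even of them on the treatment arrays. It gave 68.2, 66.7 and 67.6 in treatment, against 85.6, 95.5 and 110 in control arrays, a change of -0.43 ± 0.194 (limma, unadjusted p = 0.0444, adjusted p = 0.680). COX7A2 gave 362, 375 and 401 in treatment and 545, 423 and 567 in control arrays (-0.41 ± 0.202), and COX6B1, which faces cytochrome c, gave 1277, 1299 and 1588 in treatment and 1859, 1823 and 1727 in control arrays (-0.38 ± 0.197). COX7C and COX6C also had separated groups, each at -0.29. COX4I1, the main isoform of the largest nuclear subunit, gave -0.09 ± 0.196 with overlapping groups.

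Of the 6 isoforms known from single tissues, 4 were above 0. COX7A1, the heart and muscle partner of COX7A2, gave 64.4, 50.6 and 82.4 in treatment and 43.3, 50.9 and 37.4 in control arrays, at 0.44 ± 0.214 (limma, adjusted p = 0.697). COX6B2, a testis isoform, gave 25.3, 34.3 and 45.1 in treatment and 22.5, 29.2 and 17.7 in control arrays, at 0.37 ± 0.219. COX7B2 and COX8C, also testis isoforms, gave 0.21 ± 0.218 and 0.18 ± 0.257, and the lung isoform COX4I2 and the muscle isoform COX6A2 gave -0.18 ± 0.219 and -0.07 ± 0.215. In all 6 the groups overlapped. COX4I2, COX6B2, COX7A1, COX7B2 and COX8C had a mean intensity under 56.7, the 95th percentile of the 360 olfactory receptor clusters, which stand for background here. Those clusters had a median change of 0.12 of their own, and the part of this in the isoforms' values was not tested. The median of the 6 isoforms was 0.62 above the control mean in treatment replicate 3, against 0.01 and -0.06 in replicates 1 and 2. The widely expressed partner COX6A1 gave -0.13 ± 0.225 and, in its other cluster, -0.25 ± 0.220, and COX8A gave -0.26 ± 0.218.

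**Figure D3:**
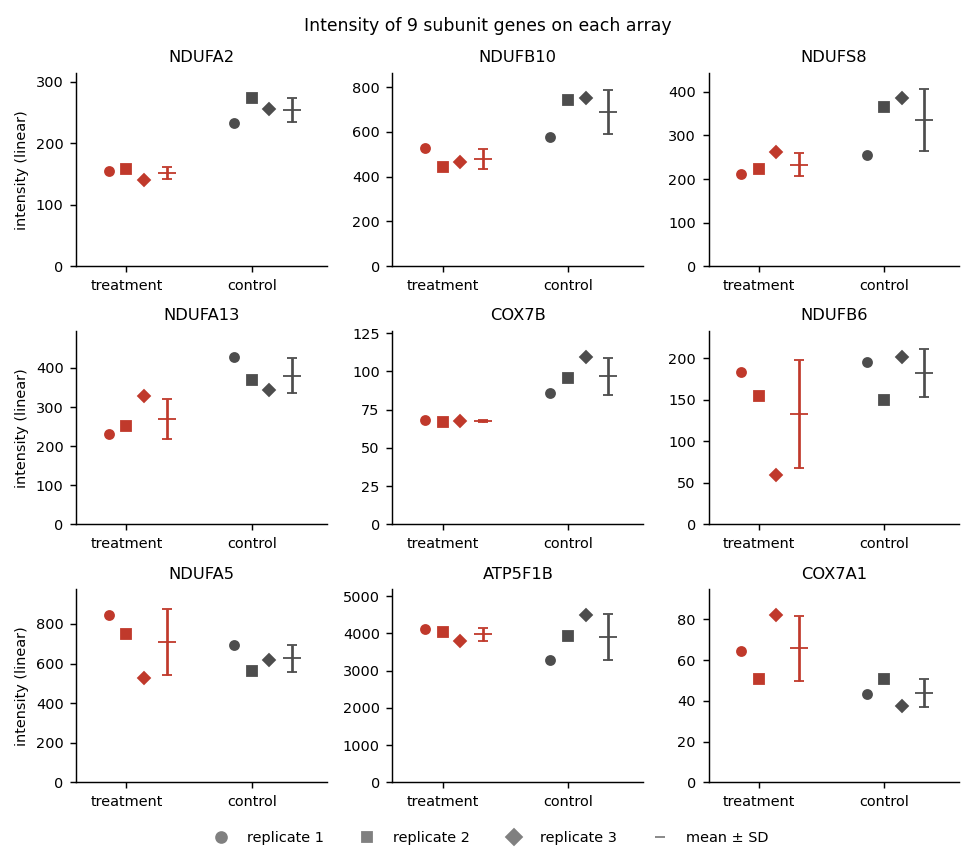
Intensity on a linear scale (vertical axis) of 9 subunit genes on each array, treatment left of control, with a symbol for each replicate and the mean ± SD (n = 3) beside it. NDUFA2, NDUFB10, NDUFA13 and COX7B separate the groups, the low mean of NDUFB6 comes from treatment replicate 3 at 59.7, and NDUFA5, ATP5F1B and COX7A1 overlap.

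Of the 16 genes of ATP synthase 15 were below 0, with a median of -0.21, and 6 had separated groups, where 7.1% of all clusters were separated with treatment lower. The small membrane subunits had the lowest median, -0.31 over 5 genes, of which 3 were separated. ATP5MJ gave 622, 681 and 772 in treatment and 970, 916 and 823 in control arrays, at -0.38 ± 0.198. ATP5MK gave 537, 472 and 489 in treatment and 707, 589 and 644 in control arrays in its brighter cluster, at -0.36 ± 0.195, but its other cluster gave -0.10 ± 0.201 with overlapping groups. By cluster number, the brighter cluster lay nearest to clusters of genes on chromosome X, although ATP5MK is on chromosome 10. It may thus read another locus, which was not tested, and the counts of separated genes include it. ATP5MF gave 1934, 2113 and 2136 in treatment and 2400, 2550 and 2753 in control arrays, at -0.31 ± 0.192. The 3 genes that encode the same mature c subunit of the rotor ring, ATP5MC1, ATP5MC2 and ATP5MC3, lay at -0.21, -0.27 and -0.11, none with separated groups. In the peripheral stalk ATP5PB gave 527, 590 and 554 in treatment and 710, 624 and 618 in control arrays (-0.22 ± 0.193), and ATP5PO gave 1013, 959 and 1143 in treatment and 1177, 1208 and 1186 in control arrays (-0.20 ± 0.192).

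In the catalytic head and central stalk all 4 measured genes had 95% intervals that included 0, as did all 16 measured genes of ATP synthase. ATP5F1B, the catalytic beta subunit, gave 4110, 4041 and 3787 in treatment and 3288, 3926 and 4505 in control arrays. Its treatment arrays lay inside the control range, with a change of 0.04 ± 0.202 and a 95% interval from -0.40 to 0.47. ATP5F1C, the rotating gamma subunit, gave 1346, 1355 and 1316 in treatment and 1436, 1505 and 1621 in control arrays, separated at -0.18 ± 0.190. ATP5F1D, the delta subunit of the central stalk, gave 1481, 1145 and 1233 in treatment and 1294, 1563 and 1958 in control arrays, at -0.30 ± 0.218, and ATP5F1A, the alpha subunit, lay at -0.24 ± 0.203.

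Array by array, the median of the 77 genes relative to the control mean was -0.27, -0.33 and -0.20 in treatment replicates 1, 2 and 3, against -0.01, -0.01 and 0.00 in the control arrays. All 3 treatment arrays therefore stood below all 3 control arrays in this median, as they did for complexes I, III and V. In complex IV the medians were -0.20, -0.31 and -0.02 in treatment, against -0.01, 0.00 and -0.02 in control arrays, so replicate 3 was level with the control arrays. In complex II the groups overlapped. Of the 77 genes 45 (58.4%) were below their control mean on all 3 treatment arrays. The share was 19.7% of all clusters and 24.3% of clusters brighter than the median cluster, to which 70 of the 77 genes belonged. The medians of those brighter clusters were 0.02, -0.02 and -0.17 in treatment replicates 1, 2 and 3. In replicate 3 the median of the 77 genes, -0.20, was thus close to that of bright clusters in general.

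Treatment replicate 3 split the members. It was the highest treatment array for 42 genes and the lowest for 22. The genes highest there relative to replicates 1 and 2 included COX8C, ATP5ME, UQCRC1, NDUFV1 and NDUFS7, and the lowest were NDUFB6, UQCRB, NDUFA5, NDUFB5 and NDUFA9. ATP5ME, a membrane subunit of ATP synthase, gave 245, 273 and 450 in treatment and 406, 356 and 329 in control arrays. UQCRB, a ubiquinone-binding subunit of complex III, gave 79.5, 65.1 and 36.0 in treatment and 51.5, 66.5 and 67.2 in control arrays. Across genes, the difference of replicate 3 from replicates 1 and 2 had a Spearman rho of -0.33 with gene length on the genome (77 genes) and of 0.28 with promoter GC content (65 genes). The rho with the difference of control replicate 3 from control replicates 1 and 2 was -0.48 (77 genes). These values are descriptions over genes that share the same arrays. The log2 change itself had a rho of 0.07 with mean intensity, 0.17 with gene length and 0.05 with promoter GC content.

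**Figure D4:**
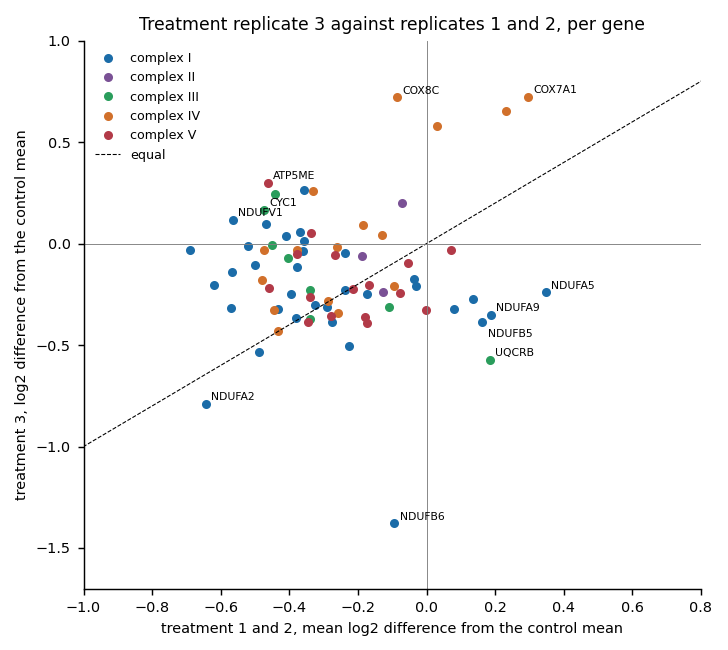
Log2 difference from the control mean in treatment replicate 3 (vertical axis) against the mean of treatment replicates 1 and 2 (horizontal axis), 1 point per subunit gene, coloured by complex; the dashed line marks equal values. NDUFB6 and UQCRB lie far below the line and ATP5ME, NDUFV1 and COX8C above it, while NDUFA2 is low on both axes.

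Genes that support the respiratory chain were described in the same way, from lists chosen with earlier results known, and none of the genes in the lists below passed limma over all clusters. For comparison, 48.2% of all clusters and 57.5% of clusters brighter than the median cluster were below 0. All treatment arrays lay below all control arrays in 7.1% and 10.04% of them, and the counts of separated groups in the lists are of this kind. Of 17 complex I assembly factors 13 (76.5%) were below 0, with a median of -0.23, and 7 (41.2%) had separated groups. ECSIT, an assembly factor also known as an adaptor in Toll-like receptor signalling, gave 139, 137 and 160 in treatment and 224, 194 and 205 in control arrays (-0.47 ± 0.194; limma, adjusted p = 0.670). FOXRED1 (-0.49 ± 0.221) and DMAC1 (-0.41 ± 0.199) had the next lowest p. Of 29 assembly factors of the other complexes 22 were below 0, with a median of -0.14, led by the ATP synthase factor ATPAF2 with 87.8, 72.8 and 76.4 in treatment and 125, 134 and 127 in control arrays (-0.61 ± 0.192; limma, adjusted p = 0.528), then UQCC2 (-0.49 ± 0.203) and COX14 (-0.41 ± 0.202). Of 11 coenzyme Q synthesis genes 8 were below 0 (median -0.23), with COQ8B at -0.64 ± 0.193, COQ3 at -0.57 ± 0.210 and PDSS2 at -0.47 ± 0.209.

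The electron carrier gene CYCS lay at 0.07 ± 0.214 with overlapping groups. The supercomplex and hypoxia-related factor HIGD2A gave 162, 206 and 213 in treatment and 248, 347 and 318 in control arrays, separated at -0.61 ± 0.212 (limma, adjusted p = 0.593). The ATP synthase inhibitor ATP5IF1 (-0.21 ± 0.201) and COX7A2L (-0.22 ± 0.213) overlapped between groups, and the 5 genes of this list had a median of -0.21. Of 17 genes of the tricarboxylic acid cycle and pyruvate dehydrogenase 12 were below 0 (median -0.10), with IDH2 at -0.57 ± 0.196, PC at -0.46 ± 0.234 and IDH3G at -0.39 ± 0.208. Of 19 import and cristae genes 16 were below 0 (median -0.17), and TIMM8B, TIMM17A and TIMM10 each lay at -0.34. Of 15 glycolysis genes 11 were below 0 (median -0.12), with PFKM at -0.30 ± 0.199, PKM at -0.25 ± 0.197 and ALDOA at -0.21 ± 0.193. The share below 0 was 48.2% of all clusters and 57.5% of the brighter clusters.

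The regulators of these genes had a median of -0.03, with 12 of 22 below 0 (54.5%) and 2 with separated groups (9.09%). These shares were near those of all clusters (48.2% and 7.1%) and of the brighter clusters (57.5% and 10.04%). ESRRA (-0.34 ± 0.196), MYC (-0.33 ± 0.202) and the mitochondrial RNA polymerase POLRMT (-0.25 ± 0.198) had the lowest p. On single arrays their median was 0.19, 0.09 and -0.27 in treatment replicates 1, 2 and 3. Of 73 mitochondrial ribosomal protein genes 62 were below 0 (84.9%), with a median of -0.20. In 18 (24.7%) all treatment arrays lay below all control arrays, and in 1 they lay above. MRPL52 lay at -0.55 ± 0.205, MRPL40 at -0.55 ± 0.204 and MRPL20 at -0.46 ± 0.194. The cytosolic ribosomal protein genes, whose products build the cytosolic ribosome, gave a median of -0.24. Of these 59 genes 58 were below 0 (98.3%) and 30 had separated groups (50.8%), led by RPL41 (-0.65 ± 0.198), RPS7 (-0.43 ± 0.197) and RPL7 (-0.38 ± 0.195). Medians below 0 were therefore not particular to the respiratory chain, and whether the lists differed was not tested.

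**Figure D5:**
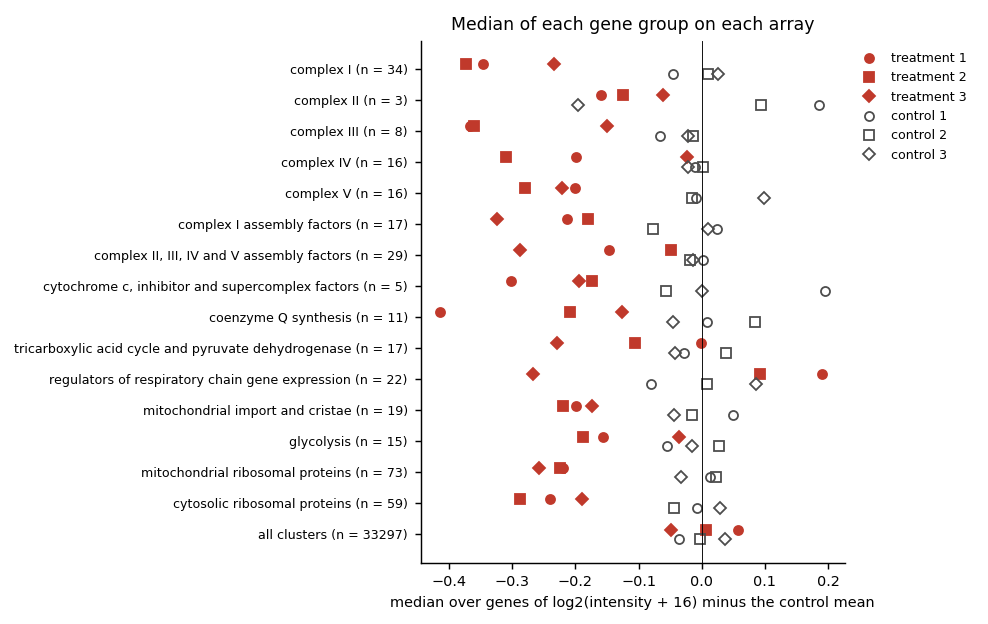
Median over the genes of each list of log2(intensity + 16) relative to the mean of the control arrays (horizontal axis), with filled symbols for the 3 treatment arrays and open symbols for the 3 control arrays, and the number of genes in brackets. For complex I the treatment medians lie at -0.35, -0.37 and -0.23, left of all control medians, and for the regulators the treatment arrays lie on both sides of 0.

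The 4 clusters that matched by symbol but hold no subunit gene went in both directions. ATP5F1EP2, a pseudogene of the epsilon subunit gene of ATP synthase, gave 361, 394 and 476 in treatment and 597, 551 and 560 in control arrays, separated at -0.47 ± 0.199 (limma, unadjusted p = 0.0352, adjusted p = 0.680). Probes may not separate a processed pseudogene from its parent gene, so its source is uncertain. UQCRBP1 (0.05 ± 0.241) and the retrogene copy ATP5MGL (0.08 ± 0.299) overlapped between groups. NDUFV1-DT, which is transcribed away from the start of NDUFV1, was the only 1 of the 88 clusters with all treatment arrays above all control arrays, where 7.47% of all clusters were. It gave 42.3, 39.0 and 48.4 in treatment and 21.7, 23.8 and 33.9 in control arrays (0.49 ± 0.203; limma, unadjusted p = 0.0310, adjusted p = 0.674), and its mean intensity lay under the 95th percentile of the olfactory receptor clusters. The bases between the annotated starts of both transcripts are shown because the changes of these transcripts had opposite signs (NDUFV1 at -0.34 ± 0.238, with overlapping groups). They are the 229 bases of chr11:67606707-67606935 in RefSeq (GRCh38.p14), 5′ to 3′ on the plus strand, toward NDUFV1, with no match to the motifs above.
NDUFV1 and NDUFV1-DT: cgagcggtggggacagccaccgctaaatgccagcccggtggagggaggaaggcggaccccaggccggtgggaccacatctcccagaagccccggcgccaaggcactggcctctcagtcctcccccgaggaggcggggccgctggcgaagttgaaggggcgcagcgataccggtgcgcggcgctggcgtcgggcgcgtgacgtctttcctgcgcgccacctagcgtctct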

How the data were processed

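Biotin-labelled cRNA from total RNA of HEK293 cells was hybridised to Affymetrix Gene 1.0 ST arrays, per the labels' protocols. The deposited values are linear intensities, 1 per cluster and array, and Partek is named per the submitters' processing notes. For background correction, normalization and genome build, nothing is given in the sources used here. Gene symbols came from the platform annotation of the 33297 clusters: 19460 had 1 symbol, 1754 several and 12083 none. A gene with several clusters is given by its brightest, as for 7 of the 77 subunit genes. In 2 of these, NDUFV2 and NDUFB4, both clusters held identical values. For SDHC, SDHD and ATP5MK the brightest cluster may read another locus, as described with complexes II and V.

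After adding 16, values were log2-transformed and tested with limma 3.58.1 (lmFit, eBayes; R 4.3.3), treatment minus control, two-sided and unblocked, with Benjamini-Hochberg adjustment over all clusters. No filter on low values was applied. The offset understates changes of dim clusters, and 3 arrays per group limit the precision. The pipeline was tested on simulated data with known changes added. The check required calls only for the largest of these, which were far larger than the members' changes. It therefore does not show whether changes as small as those of the members would be called. The members and lists were chosen with earlier results of these data known. Genes were named by a rule: members with an unadjusted p under 0.05, the 14 lowest and 8 highest changes, the 5 highest and 8 lowest mean intensities, isoform pairs and SDH genes, and up to 3 genes of each other list. Other members named, among them those with separated groups, NDUFV1, CYC1, the core subunits, CYCS, ATP5IF1 and the examples for treatment replicate 3, were chosen after their values were seen. Alternatives changed the offset, scaling, filters, variance prior, replicate block and left-out array. Deviations from the group means correlated at -0.17, 0.08 and -0.36 between arrays of the same number 1, 2 and 3. Between unlike numbers they correlated at -0.19 to 0.36, highest for treatment replicate 1 with control replicate 3 (0.52 over the members). The deviations within a group cancel out, so these values depend on one another and cannot tell whether arrays were prepared together. Some genes that fit the rule, and the genes of mitochondrial DNA, were not analysed here.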

Additional observations from a re-analysis of the deposited data

How the results depend on the processing

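Under all 17 alternatives limma called 0 of the subunit genes tested, and the lowest adjusted p for any of them was 0.155, for NDUFA2 with an offset of 50. The median log2 change of the members stayed between -0.30 with median centring and -0.21 without treatment replicate 1. The share below 0 was lowest, 67 of 77 (87.0%), after quantile normalization, without treatment replicate 3 and without control replicate 3. It was highest, 66 of 70 (94.3%), for clusters above the median, and was 72 of 77 with median centring. The count with separated groups, a result added after seeing the data along with the count below 0, was 16 after quantile normalization. Leaving out 1 array gave 28 to 48 separated genes, while the share of all clusters so separated was 9.29% to 13.995%, against 7.1% with all arrays, and 67 to 70 genes were below 0. At an unadjusted p under 0.05 limma called 22 members as lower without treatment replicate 3 (4.18% of all clusters), 18 with an offset of 50 (4.15%), 10 with median centring (3.88%) or an intensity trend (2.36%), 3 on the plain log2 scale (2.40%), 2 after adding 1 (2.37%), and 1 without treatment replicate 2 (1.07%) or with the replicate block (1.204%), against 5 (2.29%) as reported. Without treatment replicate 1 or 2, 1 member was called as higher. The share of all clusters called higher was not counted for those fits, and it was 5.01% in the fit as reported. With the replicate block, the clusters called numbered 105 and the members 0, and whether the replicate numbers mark pairs is not known. All clusters called numbered 124 in the fit as reported, 40 on the plain log2 scale, 58 after adding 1 and 69 to 129 without 1 array. Of 570 values for the 34 named members, 13 had another sign, all in members whose reported change lay between -0.18 and 0.18. ATP5F1B was at -0.018, SDHC at -0.036 and NDUFA9 at -0.048 with median centring. Without 1 array NDUFA9 ran from -0.12 to 0.19, ATP5F1B from -0.080 to 0.15, SDHC from -0.16 to 0.15, COX4I2 from -0.27 to 0.0043, COX6A2 from -0.21 to 0.094, COX8C from -0.085 to 0.37 and UQCRB from -0.25 to 0.19. The causes of these shifts were not tested.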
